A study of Saccharomyces cerevisiae with 6 samples.

Results

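The genes described here encode the carriers that bring amino acids and short peptides into the cell of Saccharomyces cerevisiae, those that move amino acids across the vacuole membrane, and the SPS sensor that switches several permease genes on. They were chosen by systematic ORF name, and the rule used no measured value, although earlier results of these data were known at the time. All 32 were measured, each by 1 probe set, among 5657 genes tested. They comprise 15 permeases of the plasma membrane, 5 genes of the SPS sensor and its transcription factors, 2 peptide carriers and 10 vacuolar carriers.

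Messenger RNA had been measured on Affymetrix arrays in 6 aerobic shake-flask cultures of the wild-type strain CEN.PK 113-7D, 1 array per culture. BSA had been added to 3 cultures (with BSA), and 3 control cultures of the same strain had none (without BSA). BSA usually stands for bovine serum albumin, a cow serum protein, although the labels give only the abbreviation, and neither its amount nor the medium is given in the sources used here. The labels call the arrays of a group biological replicates, without saying how the cultures were started. The protocol puts sampling at 48 h, whereas the design text speaks of an early phase of growth on glucose, so the growth phase is not settled by the labels.

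Yeast takes up amino acids through a family of related permeases, some with a broad range of substrates and some specific for 1 or a few amino acids. The SPS sensor at the plasma membrane detects external amino acids. It consists of the permease-like receptor Ssy1, the scaffold Ptr3 and the protease Ssy5, which cleaves the latent transcription factors Stp1 and Stp2 so that they enter the nucleus and activate permease genes. Other permease genes, GAP1 among them, are known to be repressed while good nitrogen sources are present. The SPS route works by cleavage of proteins, so transcript levels of its parts do not measure whether it is switched on.

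Values are log2 expression per probe set, so that a difference of 1 is a doubling, and a fold change is with BSA over without BSA. Array medians lay between 7.56 and 7.61. Within a group, the difference between arrays had an SD over genes of 0.0567 to 0.198, against 0.625 to 0.732 between groups. Replicates 2 and 3 without BSA were the closest pair, at 0.0567. A gene was called higher or lower where limma's adjusted p over all genes was under 0.05, and 75.4% of all genes passed, 28.3% higher and 47.1% lower with BSA. The median fold change of all genes was -0.13 (log2), and some small changes are therefore also given relative to it. A change given only as deposited includes this shift. Arrays measure shares of the RNA pool, and a change in all cells cannot be told apart from a larger change in some of them. All 3 marker genes of alpha-cells lay below the first quartile on every array, against 0 of 6 markers of a-cells.

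With BSA, 11 of the 32 genes rose and 12 fell, and 9 did not pass the threshold. These shares, 34.4% higher and 37.5% lower, are read against the 28.3% and 47.1% of all genes, so that the number of calls does not set the carriers apart. The groups did not overlap in 24 of them (75%), against 79.5% of all genes. BSA lay above in 11 and below in 13, where it did so in 29.6% and 49.9% of all genes. The furthest rises were in BAP3 (2.47-fold), AGP3 (2.05-fold), STP1 (2.03-fold), TAT1 (1.92-fold) and AGP1 (1.83-fold). TAT2 fell furthest, being 2.08-fold lower with BSA. At least 2-fold changes were thus 3 rises and 1 fall, 9.38% and 3.12% of the 32, where 7.04% and 1.96% of all genes changed as much.

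**Figure D1:**
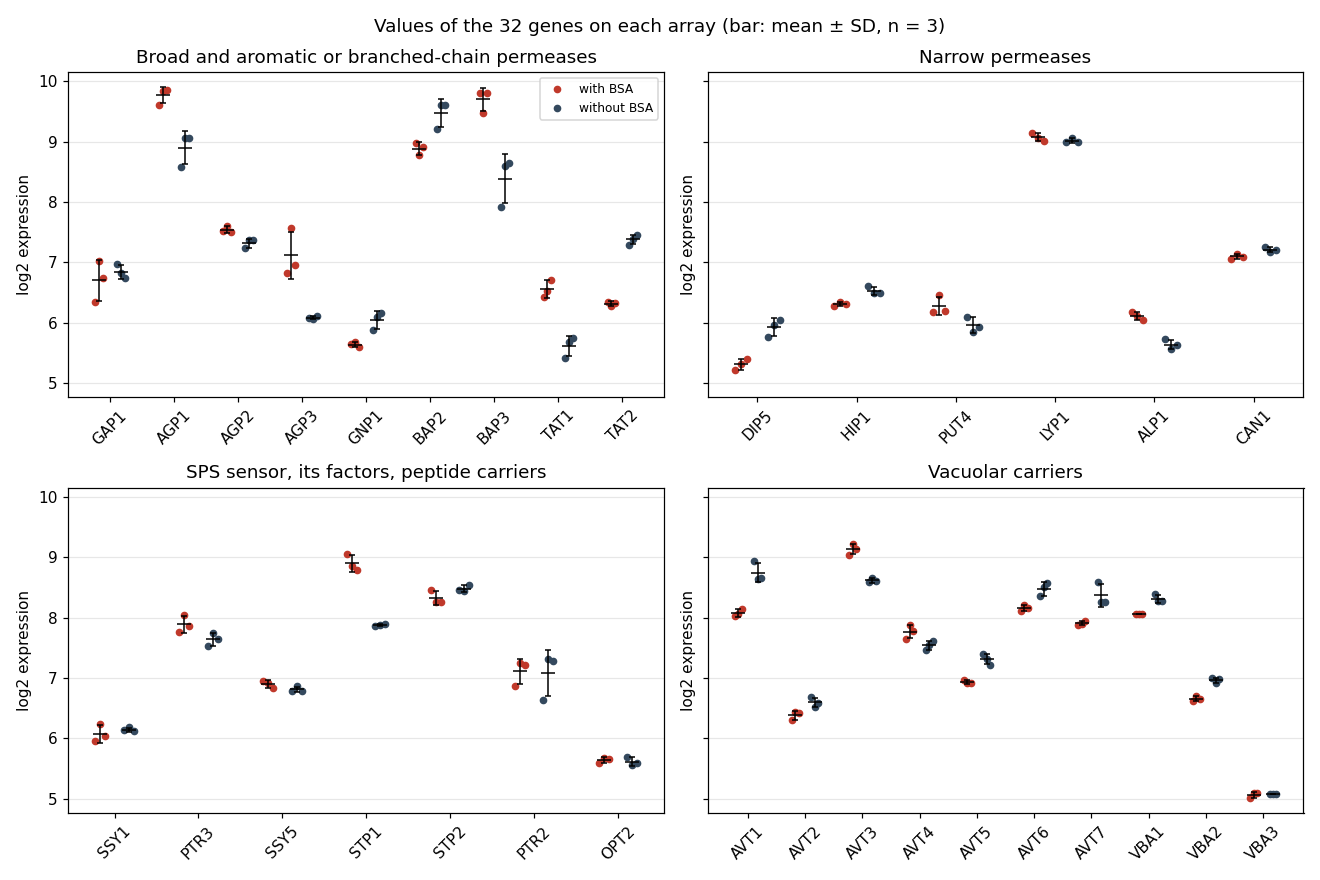
Log2 expression (vertical axis) of the 32 genes on each array, with BSA in red at the left and without BSA in dark blue at the right of each pair; the black bars give the mean ± SD of 3 arrays. BAP3, AGP3, STP1, TAT1 and AGP1 are higher on every array with BSA, and TAT2, DIP5, BAP2 and AVT1 are lower on every array with BSA.

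The median change of the 32 genes was -0.04, which is 0.09 above that of all genes, and the median size of change regardless of direction was 0.31, against 0.38 for all genes. Changes in both directions and of this size were also those of all genes, as the plot of all genes shows. Of the 15 plasma membrane permeases 7 rose and 5 fell. Of the 10 vacuolar carriers 2 rose and 7 fell. Among all genes, 28.3% were called higher and 47.1% lower.

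**Figure D2:**
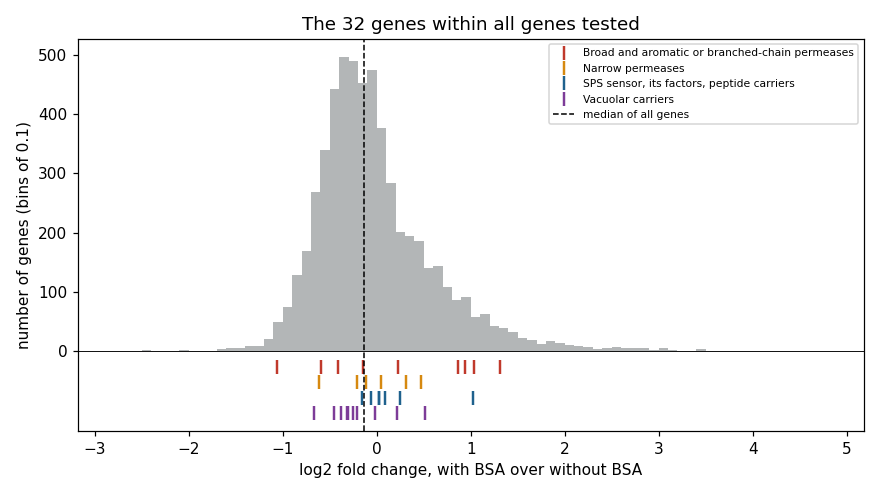
Number of genes (vertical axis, bins of 0.1) by log2 fold change with BSA over without BSA, with each of the 32 genes as a coloured tick below the axis and the median of all genes (-0.13) as a dashed line. The ticks of the broad and the aromatic or branched-chain permeases run from -1.06 to 1.31, whereas 7 vacuolar carriers lie between -0.67 and -0.21.

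The 4 permeases for branched-chain and aromatic amino acids went in opposite directions, BAP3 and TAT1 being higher with BSA and TAT2 and BAP2 lower. BAP3 (YDR046C), which carries branched-chain amino acids and several others, had values of 9.81, 9.47 and 9.81 with BSA, against 7.91, 8.60 and 8.65 without BSA. The groups were clearly apart, although the first replicate without BSA lay far below its other two. The rise was 1.31 ± 0.20 (log2 fold change ± SE, limma adjusted p = 0.000565). BAP2 (YBR068C), its close relative and the main carrier of leucine, isoleucine and valine, went the other way. It had 8.97, 8.77 and 8.91 with BSA, against 9.20, 9.60 and 9.61 without BSA, and fell by 0.59 ± 0.12 (limma adjusted p = 0.00234).

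The pair of tyrosine carriers divided in the same manner. TAT1 (YBR069C), which takes up tyrosine and branched-chain amino acids, had 6.42, 6.53 and 6.71 with BSA, against 5.42, 5.67 and 5.74 without BSA. All arrays with BSA were above all without it, and TAT1 rose by 0.94 ± 0.10 (limma adjusted p = 0.000115), although its signal was dim, below the first quartile on all 6 arrays. TAT2 (YOL020W), the high-affinity tryptophan and tyrosine permease, had 6.34, 6.27 and 6.33 with BSA, against 7.29, 7.39 and 7.45 without BSA. The replicates lay close together in each group, and the fall of 1.06 ± 0.06 had the smallest p among the 32 genes (limma adjusted p = 5.71e-06). With BSA, TAT2 was below the first quartile on all 3 arrays.

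Permeases of broad range rose in 3 of 5 cases, where 28.3% of all genes were called higher. AGP1 (YCL025C), a broad-range permease for mostly neutral amino acids and a known target of the SPS sensor, had 9.61, 9.84 and 9.86 with BSA, against 8.58, 9.06 and 9.06 without BSA. The highest control array was below the lowest array with BSA, and the rise was 0.87 ± 0.14 (limma adjusted p = 0.00077). AGP3 (YFL055W), a permease of low affinity, had 6.82, 7.56 and 6.96 with BSA, against 6.07, 6.06 and 6.11 without BSA. Its control arrays were nearly alike while its arrays with BSA were spread, replicate 2 being the highest, and it rose by 1.03 ± 0.17 (limma adjusted p = 0.00094). The signal of AGP3 was dim without BSA, below the first quartile on those 3 arrays. AGP2 (YBR132C), linked to carnitine and polyamine uptake, rose less, averaging 7.54 ± 0.053 with BSA and 7.31 ± 0.071 without BSA (SD, n = 3 each; limma adjusted p = 0.00737).

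GNP1 (YDR508C), which prefers glutamine and asparagine and is related to AGP1, fell. Its values were 5.65, 5.67 and 5.59 with BSA, against 5.88, 6.09 and 6.16 without BSA, all below the first quartile of their arrays. The groups did not overlap, and the change was -0.41 ± 0.08 (limma adjusted p = 0.00176). GAP1 (YKR039W), the general amino acid permease, had 6.34, 7.02 and 6.74 with BSA, against 6.97, 6.82 and 6.74 without BSA. The arrays with BSA were scattered on either side of the controls, so that no difference was resolved (-0.14, 95% interval -0.51 to 0.23, limma adjusted p = 0.435).

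Of the 6 permeases of narrow range, 2 rose, 2 fell and 2 did not pass. Among all genes, 28.3% were called higher and 47.1% lower. DIP5 (YPL265W), which carries glutamate and aspartate, had 5.22, 5.31 and 5.39 with BSA, against 5.76, 5.96 and 6.05 without BSA. It fell by 0.62 ± 0.08 (limma adjusted p = 0.000331), with dim signals throughout. HIP1 (YGR191W), the histidine permease, had 6.27, 6.34 and 6.31 with BSA, against 6.60, 6.49 and 6.49 without BSA. Its change of -0.22 ± 0.05 passed as deposited (limma adjusted p = 0.00727) but was only -0.08 relative to the median of all genes. The call was lost after quantile normalization, after cyclic loess and under deviation centring, which sets the median deviation of each array from the gene means to 0 (limma adjusted p = 0.0872 to 0.436).

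The carriers of basic amino acids did not move as a group. ALP1 (YNL270C), an arginine permease, averaged 6.11 ± 0.058 with BSA and 5.64 ± 0.085 without BSA (SD, n = 3 each) and rose by 0.47 ± 0.06 (limma adjusted p = 0.000249). LYP1 (YNL268W), the lysine permease, averaged 9.07 ± 0.067 with BSA and 9.02 ± 0.035 without BSA, with overlapping groups (limma adjusted p = 0.423). LYP1 passed as lower after quantile normalization (limma adjusted p = 0.0405) and as higher under deviation centring (limma adjusted p = 0.0248). CAN1 (YEL063C), the main arginine permease, averaged 7.09 ± 0.038 with BSA and 7.21 ± 0.049 without BSA. Its groups were narrowly apart, but the difference did not pass (limma adjusted p = 0.0708) and was 0.02 relative to the median of all genes. PUT4 (YOR348C), the proline permease, averaged 6.27 ± 0.15 with BSA and 5.96 ± 0.12 without BSA and rose by 0.31 ± 0.09 (limma adjusted p = 0.0174). That call was lost without control replicate 2 (limma adjusted p = 0.0633) or 3 (limma adjusted p = 0.0512).

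**Figure D3:**
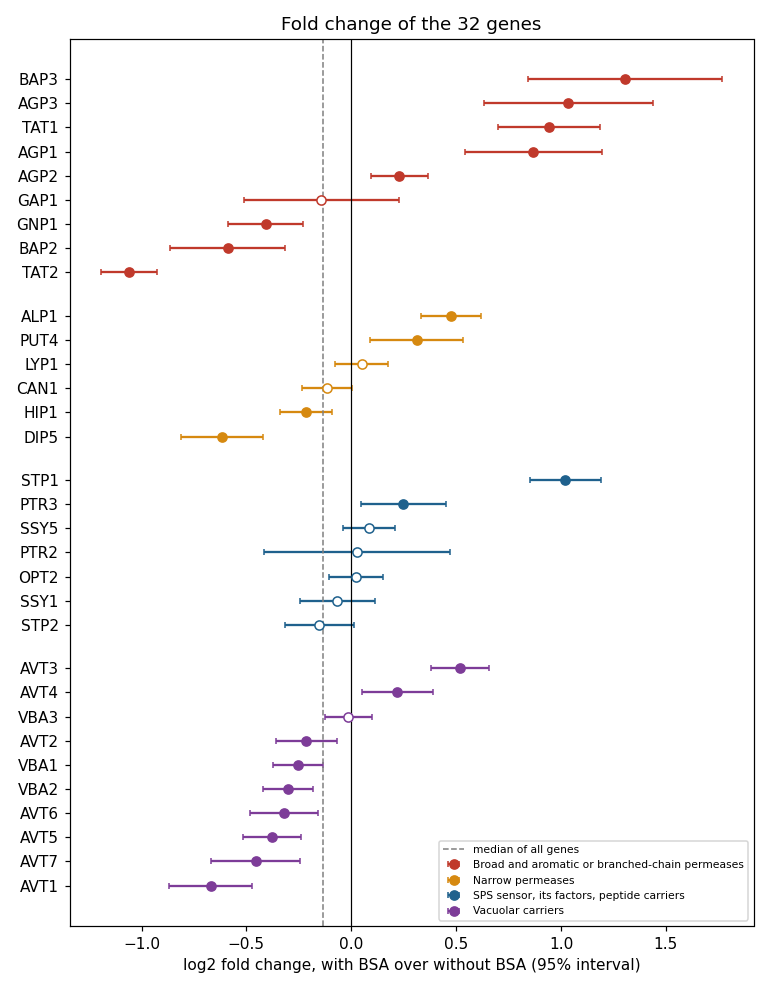
Log2 fold change with BSA over without BSA (horizontal axis) of the 32 genes with its 95% interval from limma, in 4 groups; filled points passed an adjusted p of 0.05, open points did not, and the dashed line is the median of all genes (-0.13). Within the first group the points run from BAP3 at 1.31 to TAT2 at -1.06, and among the sensor genes STP1 stands at 1.02 while SSY1, SSY5 and STP2 have intervals that include 0.

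Among the genes of the SPS sensor the furthest change was in STP1, the gene of a transcription factor. STP1 (YDR463W) had 9.05, 8.86 and 8.78 with BSA, against 7.86, 7.87 and 7.89 without BSA. Its control arrays lay close together, with an SD of 0.015, and every array with BSA was far above them, giving a rise of 1.02 ± 0.07 (limma adjusted p = 1.58e-05). STP2 (YHR006W), which encodes the related factor, had 8.46, 8.26 and 8.25 with BSA, against 8.46, 8.44 and 8.54 without BSA. The first replicate with BSA overlapped the controls, and STP2 did not pass (-0.15 ± 0.07, limma adjusted p = 0.0823). It passed as lower without that replicate (limma adjusted p = 0.00837), with array weights (limma adjusted p = 0.00501) and after quantile normalization (limma adjusted p = 0.0183).

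Of the 3 sensor subunits, PTR3 alone passed, where 75.4% of all genes did. SSY1 (YDR160W), the receptor, had 5.95, 6.24 and 6.04 with BSA, against 6.13, 6.18 and 6.12 without BSA. The values overlapped and were dim (-0.07, 95% interval -0.25 to 0.11, limma adjusted p = 0.459). SSY5 (YJL156C), the protease, had 6.95, 6.92 and 6.83 with BSA, against 6.79, 6.86 and 6.79 without BSA. It did not pass as deposited (0.08 ± 0.05, limma adjusted p = 0.184), but it passed as higher after quantile normalization, cyclic loess and deviation centring (limma adjusted p = 0.00324 to 0.0126). PTR3 (YFR029W), the scaffold, had 7.76, 8.04 and 7.86 with BSA, against 7.52, 7.74 and 7.65 without BSA. All arrays with BSA were higher, if barely, and PTR3 rose by 0.25 ± 0.09 (limma adjusted p = 0.0323), a call lost without replicate 2 or 3 with BSA or control replicate 1 or 3 (limma adjusted p = 0.0658 to 0.0949).

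Neither peptide carrier passed. PTR2 (YKR093W), which imports di- and tripeptides, had 6.86, 7.24 and 7.22 with BSA, against 6.64, 7.32 and 7.28 without BSA. Replicate 1 was the low one in each group, and the spread leaves an interval of -0.42 to 0.47 around a change of 0.03 (limma adjusted p = 0.904). OPT2 (YPR194C), of the oligopeptide transporter family, had 5.59, 5.67 and 5.66 with BSA, against 5.69, 5.56 and 5.59 without BSA. These dim values overlapped closely, with a narrow interval of -0.10 to 0.15 (limma adjusted p = 0.704). OPT2 passed as higher only under deviation centring (limma adjusted p = 0.0266).

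Among vacuolar carriers of the AVT family, AVT3 and AVT4 rose and the other 5 of 7 fell. Among all genes, 28.3% were called higher and 47.1% lower. AVT3 (YKL146W), which exports neutral amino acids from the vacuole, had 9.04, 9.21 and 9.14 with BSA, against 8.58, 8.66 and 8.60 without BSA. The groups were well apart, with a rise of 0.52 ± 0.06 (limma adjusted p = 0.000134). AVT4 (YNL101W), a related exporter, averaged 7.76 ± 0.11 with BSA and 7.54 ± 0.077 without BSA (SD, n = 3 each; limma adjusted p = 0.025). The AVT4 call was lost without replicate 2 or 3 with BSA or control replicate 1 or 2 (limma adjusted p = 0.061 to 0.0782).

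AVT1 (YJR001W), which imports large neutral amino acids into the vacuole, fell furthest of this family. It had 8.02, 8.06 and 8.14 with BSA, against 8.93, 8.64 and 8.66 without BSA, and the change was -0.67 ± 0.08 (limma adjusted p = 0.000217). AVT7 (YIL088C), an exporter of glutamine and proline, had 7.88, 7.90 and 7.95 with BSA, against 8.58, 8.26 and 8.26 without BSA, and changed by -0.45 ± 0.09 (limma adjusted p = 0.00237). In AVT1 and AVT7 alike the groups were apart and control replicate 1 was the highest array. AVT6 (YER119C), which exports acidic amino acids, averaged 8.15 ± 0.051 with BSA and 8.47 ± 0.12 without BSA (SD, n = 3 each; limma adjusted p = 0.00346). Its change of -0.32 was -0.19 relative to the median of all genes. AVT5 (YBL089W), whose substrate is less well known, averaged 6.93 ± 0.035 with BSA and 7.31 ± 0.088 without BSA (limma adjusted p = 0.000674). AVT2 (YEL064C) had 6.30, 6.43 and 6.41 with BSA, against 6.68, 6.52 and 6.58 without BSA. Its change of -0.21 ± 0.06 (limma adjusted p = 0.015) was -0.08 relative to all genes, and the call was lost under the same 3 scalings as that of HIP1 (limma adjusted p = 0.151 to 0.578).

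The VBA carriers are known to move basic amino acids into the vacuole. VBA1 (YMR088C) had 8.06, 8.05 and 8.06 with BSA, against 8.39, 8.27 and 8.28 without BSA. VBA2 (YBR293W) had 6.62, 6.70 and 6.65 with BSA, against 6.99, 6.91 and 6.98 without BSA. In each of the 2 genes the groups were apart, with changes of -0.25 ± 0.05 (limma adjusted p = 0.00253) and -0.30 ± 0.05 (limma adjusted p = 0.000944). Relative to the median of all genes these changes were -0.12 and -0.17. The VBA1 call was lost under deviation centring (limma adjusted p = 0.0652) and the VBA2 call after cyclic loess (limma adjusted p = 0.0676). VBA3 (YCL069W) was read by a probe set whose type marks a signal shared with other sequences. It averaged 5.06 ± 0.044 with BSA and 5.08 ± 0.0058 without BSA, below the first quartile on all 6 arrays, and did not pass (limma adjusted p = 0.797), except as higher under deviation centring (limma adjusted p = 0.0373).

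Dim signals were more frequent here than elsewhere on the arrays. Of the 32 genes, 10 (31.2%) lay below the first quartile on all 6 arrays, against 17.9% of all genes. They were TAT1, GNP1, DIP5, HIP1, PUT4, ALP1, SSY1, OPT2, AVT2 and VBA3.

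The changes of related or neighbouring genes were set against each other within each array, for 8 pairs chosen with their values known. Relative to its partner BAP2, BAP3 changed by 1.90 more (log2), TAT1 changed by 2.0 more than TAT2, AGP1 by 1.28 more than GNP1 and STP1 by 1.17 more than STP2. Since the pairs were picked with their values known, the differences are given without a test. The least apart were PTR3 and SSY5, with a difference of 0.16 and overlapping groups.

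In the R64 gene table, BAP2 and TAT1 are direct neighbours on the same strand, yet BAP2 fell and TAT1 rose, a gap of 1.53 (log2). ALP1 and LYP1, separated by 1 gene and read from opposite strands, differed by 0.42, and AVT3 changed by 0.30 more than the related AVT4. AVT2 and CAN1 are neighbours as well and changed by -0.21 and -0.12. Adjacent carriers did not share their changes in every case.

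A list of 9 permease genes known as targets of Stp1 and Stp2 was written with earlier results of these data known. It holds 8 of the 32 genes and MUP1, the high-affinity methionine permease. In this list 3 genes rose (BAP3, TAT1 and AGP1), 4 fell (TAT2, DIP5, BAP2 and GNP1) and 2 did not pass, PTR2 and MUP1. Among all genes, 28.3% were called higher and 47.1% lower. The median change of the list was 0.03, against -0.13 for all genes, and its median size of change was 0.67, against 0.38. MUP1 had 8.77, 9.05 and 8.90 with BSA, against 7.48, 8.52 and 8.70 without BSA. The groups were apart but the control arrays were widely spread (0.67 ± 0.29, limma adjusted p = 0.067). The size of the change moved with the control arrays left out, being 0.29 without replicate 1 and 0.91 without replicate 3, and MUP1 passed as higher in each case (limma adjusted p = 0.0278 and 0.0219). It also passed with control replicates 2 and 3 as 1 sample (0.86, limma adjusted p = 0.0359), under deviation centring (0.80, limma adjusted p = 0.039) and with array weights (0.38, limma adjusted p = 0.0335).

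The same 9 genes shared low values in control replicate 1, which was noticed after the values were seen. Control replicates 2 and 3 were the closest pair of arrays (SD of 0.0567), so the pattern rests on 1 culture. Control replicate 1 was the lowest control array in all 9, which held for 46.5% of all genes. It lay at least 0.2 below each of the other control arrays in 7 of the 9, against 7.34% of all genes. The gap to the mean of replicates 2 and 3 was -1.14 for MUP1, -0.71 for BAP3, -0.66 for PTR2, -0.48 for AGP1, -0.41 for BAP2 and -0.29 for TAT1, while the first 5% of all genes lay below -0.26. GNP1 and DIP5 (-0.24 each) and TAT2 (-0.13) did not reach that mark. Genes that rose with BSA and genes that fell were both among the 9. The gap was not particular to these 9. Outside the list, MMP1 (-0.75), STP4 (-0.71), MUP3 (-0.46) and SAM3 (-0.36), described with their changes further on, also had low values in control replicate 1. STP1, with a gap of -0.02, and SSY5, with -0.04, did not. The same array lay above the other 2 in AVT7 (0.32) and AVT1 (0.28). It was also above them in the glucose-repressed genes FBP1 (0.83), ICL1 (0.61), ADH2 (0.54), MLS1 (0.41) and PCK1 (0.31), where the last 5% of all genes lay above 0.29. JEN1, the remaining listed gene of this kind, did not reach that mark (0.10). Genes of other lists did, namely CUP9 (0.42) and the a-cell markers STE2 (0.39), MFA2 (0.34) and BAR1 (0.34). The a-cell markers STE6 (0.20), AGA2 (0.03) and MFA1 (-0.01) did not. The part of the growth state of this culture in the gaps was not tested.

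**Figure D4:**
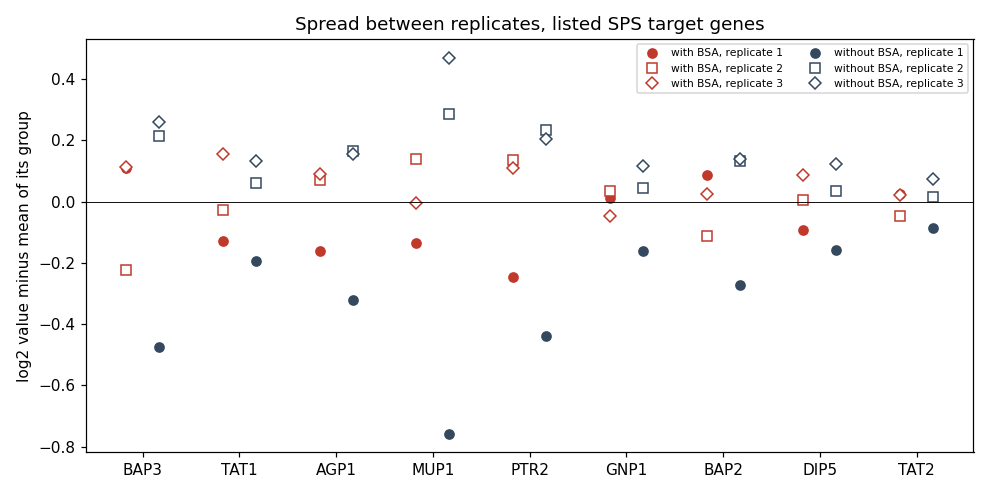
Log2 value of each array minus the mean of its group (vertical axis) for 9 listed target genes of the SPS sensor, with BSA in red at the left and without BSA in dark blue at the right; filled symbols are replicate 1. The filled blue symbol is the lowest control array in all 9 genes, by a gap of -1.14 to -0.13 from the mean of the other control arrays.

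Control replicate 1 bears on the size of some changes. Without it the number of the 32 genes called was 21, 9 higher and 12 lower, the genes that lost their calls being PTR3 and AVT4. BAP3, TAT1 and AGP1 kept their rises and BAP2, GNP1, DIP5 and TAT2 their falls.

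Other genes of the SPS route and relatives of its factors, listed together, moved in both directions. Of 12 listed genes, 5 rose, 5 fell and 2 did not pass, where 28.3% of all genes were called higher and 47.1% lower. The furthest rises were in STP4 (2.16 ± 0.19, limma adjusted p = 3.56e-05) and STP3 (1.77 ± 0.09, limma adjusted p = 4.08e-06), zinc-finger proteins related to Stp1 and Stp2 with less well-known targets. STP4 had 10.71, 10.45 and 10.55 with BSA, against 7.95, 8.68 and 8.63 without BSA. GRR1, part of the ubiquitin ligase needed for SPS signalling, fell by 0.55 ± 0.06 (limma adjusted p = 0.000136). The other genes of these counts, named after their values were seen, were RTS1 (0.66 ± 0.13), ASI3 (0.45 ± 0.09) and YCK1 (0.19 ± 0.07), which rose, and YCK2 (-0.38 ± 0.07), ASI1 (-0.37 ± 0.06), TUP1 (-0.33 ± 0.08) and CYC8 (-0.25 ± 0.05), which fell. Casein kinases are encoded by YCK1 and YCK2, a phosphatase subunit by RTS1 and a general corepressor by TUP1 and CYC8. The YCK1 call was lost with control replicates 2 and 3 as 1 sample (limma adjusted p = 0.102), after quantile normalization (limma adjusted p = 0.171) and without BSA replicate 2 or control replicate 2 or 3 (limma adjusted p = 0.0896 to 0.118). The CYC8 call was lost after cyclic loess (limma adjusted p = 0.255) and under deviation centring (limma adjusted p = 0.0834). DAL81, a coactivator of Stp targets (-0.08 ± 0.07, limma adjusted p = 0.302), and ASI2, of the inner nuclear membrane (0.05 ± 0.06, limma adjusted p = 0.458), did not pass as deposited. DAL81 passed as lower with array weights (limma adjusted p = 0.0401), and ASI2 as higher after cyclic loess and under deviation centring (limma adjusted p = 0.0139 and 0.0364). Of 3 further listed genes, UBR2 fell by 0.30 ± 0.06 (limma adjusted p = 0.00311), which was -0.16 relative to the median of all genes. CUP9, the gene of the repressor of PTR2 (0.26 ± 0.13, limma adjusted p = 0.105), and the ubiquitin ligase gene UBR1 (0.16 ± 0.09, limma adjusted p = 0.135) did not pass. The UBR2 change was -0.13 after cyclic loess and lost its call (limma adjusted p = 0.0804). CUP9 passed as higher with array weights, after cyclic loess, under deviation centring and without control replicate 1 or BSA replicate 1 (0.34 to 0.45, limma adjusted p = 0.000136 to 0.0463). UBR1 passed as higher with array weights, under deviation centring and without BSA replicate 1 (0.21 to 0.30, limma adjusted p = 0.0042 to 0.014).

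The gene of the chaperone that packages permeases in the endoplasmic reticulum (ER) had lower transcript levels. SHR3, on which most permeases of this family depend for leaving the ER, had 8.27, 8.30 and 8.38 with BSA, against 9.49, 9.48 and 9.42 without BSA. The groups were far apart, and the fall of 1.14 ± 0.05 (limma adjusted p = 2.95e-06) stands beside 1.06 ± 0.06 for TAT2, the furthest fall among the 32. In the list of 12 sorting genes, 4 rose, 4 fell and 4 did not pass, against 28.3% of all genes called higher and 47.1% lower. NPR1, a kinase that stabilises permeases at the plasma membrane, rose by 0.65 ± 0.05 (limma adjusted p = 1.59e-05), and ALY1, an arrestin-type adaptor, fell by 0.54 ± 0.06 (limma adjusted p = 8.43e-05). The others called, named after their values were seen, were the adaptor genes LDB19 (0.55 ± 0.07) and BUL1 (0.49 ± 0.14) and MEH1 (0.21 ± 0.05), which rose, and BUL2 (-0.32 ± 0.05) and GTR1 (-0.23 ± 0.07), which fell. BUL1 did not pass without BSA replicate 2 or 3 (limma adjusted p = 0.0517 and 0.0578), nor GTR1 under quantile normalization, cyclic loess and deviation centring (limma adjusted p = 0.0551 to 0.335). Those that did not pass were the ubiquitin ligase gene RSP5 (-0.11 ± 0.05), ALY2 (0.10 ± 0.05) and the permease sorting genes SLM4 (0.07 ± 0.09) and GTR2 (0.03 ± 0.05), with limma adjusted p = 0.0591 to 0.683. RSP5 passed as lower with array weights, after quantile normalization and without BSA replicate 1 (limma adjusted p = 0.00343 to 0.0376). ALY2 passed as higher with array weights, both ways of centring and cyclic loess (limma adjusted p = 0.00766 to 0.0481), and GTR2 under deviation centring (limma adjusted p = 0.0189).

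Some carriers outside the 32 rose further. Of 6 further carriers of the same superfamily 3 rose and 2 fell, where 28.3% of all genes were called higher and 47.1% lower. The rises were led by UGA4, which carries 4-aminobutyrate (2.42 ± 0.10, limma adjusted p = 2.03e-06), and MUP3, a methionine permease of low affinity (2.60 ± 0.13, limma adjusted p = 3.65e-06). UGA4 was below the first quartile on the 3 arrays without BSA. TPO5, a polyamine exporter, fell by 0.39 ± 0.05 (limma adjusted p = 0.000317). Also called, and named after their values were seen, were SAM3, for S-adenosylmethionine (0.61 ± 0.11), and MMP1, for S-methylmethionine (-0.56 ± 0.20), whose call was lost when any of 5 of the 6 arrays was left out (limma adjusted p = 0.0563 to 0.106), under 3 of the 4 other scalings (limma adjusted p = 0.0512 to 0.0995) and with control replicates 2 and 3 as 1 sample (limma adjusted p = 0.0962). Where PTR2 and OPT2 did not pass, OPT1, the high-affinity glutathione carrier that also takes oligopeptides, had 6.46, 6.87 and 6.56 with BSA, against 5.17, 5.29 and 5.22 without BSA. It rose by 1.40 ± 0.10 (limma adjusted p = 1.85e-05), although its signal was dim, below the first quartile on 5 of the 6 arrays. DAL5, which carries allantoate and dipeptides, fell by 0.35 ± 0.09 (limma adjusted p = 0.00777), a call lost after cyclic loess (limma adjusted p = 0.121).

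Further vacuolar carriers linked to amino acids mostly fell, as did the AVT and VBA genes. Of 7 listed, 6 were measured, of which 5 fell and 1 rose, with a median of -0.35. RTC2, a vacuolar carrier of cationic amino acids, had 9.0, 8.92 and 8.91 with BSA, against 7.82, 7.87 and 7.85 without BSA, and rose by 1.10 ± 0.05 (limma adjusted p = 2.8e-06). YPQ1, a relative of RTC2, fell by 0.65 ± 0.05 (limma adjusted p = 2.18e-05), and VBA4 by 0.66 ± 0.07 (limma adjusted p = 8.4e-05). The remaining falls, named after their values were seen, were YPQ2 (-0.45 ± 0.06), ATG22 (-0.25 ± 0.06) and ERS1 (-0.23 ± 0.07). Relative to the median of all genes they were -0.32, -0.12 and -0.10. ERS1 did not pass under any of the 4 other scalings (limma adjusted p = 0.0509 to 0.539) or without BSA replicate 2 (limma adjusted p = 0.0668), and ATG22 not under deviation centring (limma adjusted p = 0.0893). The median of the 10 vacuolar carriers among the 32 was -0.28, or -0.15 relative to all genes, of which 47.1% were called lower.

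Nitrogen catabolite repression of GAP1, PUT4 and other permease genes is set by 4 GATA factors and by Ure2, which holds the GATA factor Gln3 in the cytoplasm. Their genes also went both ways, as did all genes (28.3% called higher and 47.1% lower). Of 5 listed genes, GAT1 (0.33 ± 0.08, limma adjusted p = 0.00575) and DAL80 (0.49 ± 0.11, limma adjusted p = 0.00487) rose, while GZF3 (-0.37 ± 0.06, limma adjusted p = 0.000534) and URE2 (-0.57 ± 0.09, limma adjusted p = 0.000567) fell. GLN3 did not pass as deposited (0.05 ± 0.06, limma adjusted p = 0.435), but passed as higher after cyclic loess and under deviation centring (limma adjusted p = 0.0144 and 0.0165). The GAT1 call was lost after quantile normalization (limma adjusted p = 0.1). Signals of DAL80 and GLN3 were below the first quartile on all 6 arrays, and those of GZF3 on 5. GCN4, the activator of amino acid synthesis genes, whose protein is mainly set by translation, fell by 0.27 ± 0.06 (limma adjusted p = 0.00394). Relative to the median of all genes the GCN4 change was -0.14. Of 6 glucose-repressed genes listed to describe the growth state, FBP1 rose (1.20 ± 0.23, limma adjusted p = 0.0018). ADH2 (-0.76 ± 0.15, limma adjusted p = 0.00214) and PCK1 (-0.39 ± 0.15, limma adjusted p = 0.0398) fell. The other 3, ICL1, MLS1 and JEN1, did not pass (limma adjusted p = 0.136 to 0.526). The PCK1 call was lost under 3 of the 4 other scalings and without BSA replicate 1 or 3 or control replicate 1 or 3 (limma adjusted p = 0.0566 to 0.126). The part of the growth state in the changes of the carriers was not tested.

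Under quantile normalization and cyclic loess, none of the 23 called genes of the 32 changed sign. Each way of centring adds the same amount to the change of every gene. That amount was less than the smallest called change (-0.21 for AVT2), so centring could not turn the sign of a called gene. The scaling decided calls close to the median of all genes and moved the smaller changes. AGP2 reached 0.39 after cyclic loess, and PTR3 0.38 and AVT4 0.35 under deviation centring, while AVT5 was at -0.19 after cyclic loess and AVT6 at -0.19 with that centring. Under deviation centring, 15 of the 32 were higher and 9 lower, while 50.2% of all calls were higher, against 37.6% as deposited.

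**Figure D5:**
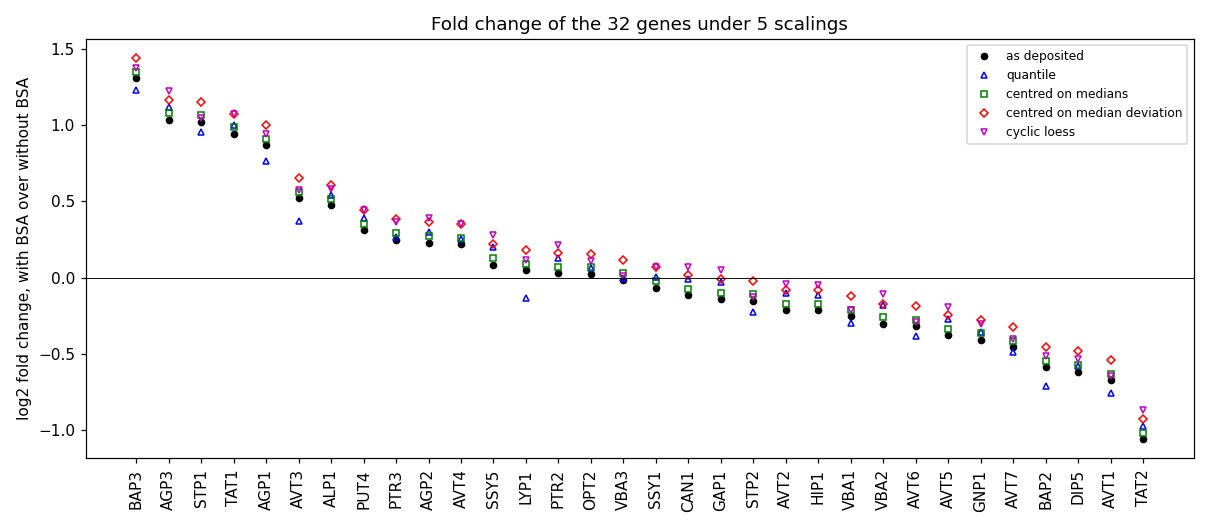
Log2 fold change with BSA over without BSA (vertical axis) of the 32 genes, ordered by their change as deposited (black points), with 4 other scalings as open symbols. BAP3 stays at the left between 1.23 and 1.44 and TAT2 at the right between -1.06 and -0.87, while genes near the middle, such as LYP1 and CAN1, fall on either side of 0.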

How the data were processed

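Total RNA of 6 cultures was measured on Affymetrix arrays, 3 with BSA and 3 without. Per the submitters' processing notes, PLIER and R 2.10.1 were used, with no statement of which did what. Each deposited value is the log2 expression of a probe set; that the base is 2 is inferred from the span of values. How background and array differences were corrected is not given in the sources used here. Probe sets were paired with ORFs through the deposited annotation table and named from the gene table of assembly R64, in which all but 13 of 5705 probe sets found their ORF. The probe set with the highest mean was kept per gene (5657 genes). The comparison was fitted over all genes with limma 3.58.1 in R 4.3.3 (lmFit and eBayes, no block), with Benjamini-Hochberg adjustment and a threshold of 0.05, after a check on simulated data. Depth does not apply, and having 3 arrays per group limits the precision.

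The 32 genes and the lists were chosen with earlier results of these data known. Values of every array are given for the sensor genes, the peptide carriers, the 6 highest and 6 lowest changes and genes whose call a scaling removed. List genes are named for the smallest p (up to 3) or no call, others as chosen after their values were seen. Promoter motifs were not searched and no sequences were used here. Alternatives were the replicate block, variance priors, array weights, 4 scalings, filters on dim genes, probe set rules, each array left out, control replicates 2 and 3 as 1 sample and stricter thresholds.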

Additional observations from a re-analysis of the deposited data

How the results depend on the processing

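Of the 32 genes, 23 were called as deposited, 11 higher and 12 lower, and 4268 of all genes, 1603 higher and 2665 lower. The counts stayed within 1.5 times of these except where fewer genes were tested or a minimum fold was set. Without the dimmest 25% of genes, 17 of the 32 were tested and 13 called, 7 higher and 6 lower. Without the dimmer 50%, 13 were tested and 11 called, 6 higher and 5 lower, and 2232 of all genes were called, 1045 higher and 1187 lower. With at least 2-fold required, 4 of the 32 were called, 3 higher and 1 lower, and 509 of all genes, 398 higher and 111 lower. Leaving out each array in turn gave 21 to 24 of the 32 called, 9 to 11 higher and 12 to 13 lower, and 3912 to 4277 of all genes, 1453 to 1597 higher and 2459 to 2680 lower. With control replicates 2 and 3 as 1 sample, PUT4 lost its call (limma adjusted p = 0.056).

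The labels do not say that equal replicate numbers share a batch, so the numbers were not taken as pairs. Deviations of same-numbered arrays had correlations of 0.103, 0.0187 and 0.0426, and those of differently numbered arrays -0.118 to 0.117. With the replicate block 23 of the 32 genes and 4266 of all genes were called. Among the list genes named, the block ended the calls of YCK1 and PCK1 (limma adjusted p = 0.0605 and 0.0736) and gave one to MUP1 (limma adjusted p = 0.0254).

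No called gene among the 32 changed sign. Of the genes not called, 7 did. LYP1 was at -0.0048 with array weights and -0.136 after quantile normalization. VBA3 was at 0.0035 with array weights, 0.0279 and 0.118 with arrays centred on their medians and under deviation centring, 0.009 after cyclic loess and -0.0277 to 0.0115 with 1 array left out. PTR2 was at -0.0925 with array weights and -0.192 to 0.15 with 1 array left out, lowest without control replicate 1. SSY1 was at 0.0055 after quantile normalization, 0.0663 under deviation centring and 0.0675 after cyclic loess, and CAN1 at 0.0168 and 0.0701 under the last 2 of these. GAP1 was at 0.0508 after cyclic loess and -0.301 to 0.0371 with 1 array left out, and OPT2 at -0.0027 to 0.062. Among list genes, none of those below called as deposited, SLM4 was at -0.055 with array weights, -0.043 after quantile normalization and -0.0186 to 0.121 with 1 array left out. DAL81 was at 0.0227 after quantile normalization, 0.0534 under deviation centring and 0.096 after cyclic loess, and RSP5 at 0.0212 under deviation centring. With 1 array left out, ASI2 was at -0.0002 to 0.0887 and GTR2 at -0.013 to 0.061. The causes were not tested.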
